A study of Mus musculus with 6 samples.

Results

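The PGC-1 coactivators and the nuclear receptors they serve form the metabolic control layer of the heart muscle cell, and the RNA levels of 10 of its genes were followed in the hearts of mice with and without myocardial infarction (MI). The genes were taken by symbol, in a choice made with earlier results of these data known: the coactivators *Ppargc1a* and *Ppargc1b*, the estrogen-related receptors *Esrra*, *Esrrb* and *Esrrg*, the receptors *Ppara*, *Ppard* and *Pparg*, the retinoid X receptor *Rxrg*, and *Tfam*. All 10 were found by their NCBI gene number among the 17441 genes listed in any library. Each level is an FPKM value, that is, fragments per kilobase of transcript relative to the mapped fragments of the library, so levels of different genes can be set side by side.

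The RNA came from heart tissue below the ligature, taken 3 days after surgery from male mice that were 12 weeks old by their labels. The first group, WT Sham (written Sham), had wild-type mice that underwent surgery without ligation, and the second, WT MI, wild-type mice whose left coronary artery was ligated. The third group, labelled *Card9* KO MI (written KO MI), had mice with a constitutive *Card9* knockout and the same ligation. *Card9* encodes an adaptor protein of innate immune cells, and the comparison of the infarcted groups asks what its loss changes in the infarcted heart. Each group had 2 libraries. The knockout mice were on a C57BL/6 background, and wild-type controls could be littermates or C57BL/6 mice. Nothing in the sources used here says which animals gave which library, so p-values measure only the spread between these libraries. Knockout hearts without infarction were not analysed here, so between KO MI and Sham the genotype cannot be told apart from the infarction.

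*Card9* RNA did not have its lowest level in the group labelled as its knockout. Its FPKM was 0.99 and 1.03 (Sham), 3.39 and 5.08 (WT MI) and 9.85 and 6.94 (KO MI), and the difference of KO MI from WT MI did not pass the test (log2 difference 0.85, adjusted p = 0.112). The part of the gene that the knockout removes is not given in the sources used here, so whether this FPKM can check the label is not known, and KO MI stands throughout for libraries that carry this label. The depth, estimated from the spacing of the lowest FPKM values, lay between 3000000 and 4284000 fragments per library. That puts the members between an estimated 35.9 fragments (*Pparg* in Sham 1) and 508 fragments (*Ppargc1a* in Sham 1), so counting error is largest for *Pparg*.

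PGC-1alpha and PGC-1beta bind no DNA themselves. They dock on transcription factors and raise the activity of the genes these occupy. Estrogen-related receptors need no known hormone and act on genes of the respiratory chain and the citric acid cycle, while PPARs are switched on by fatty acids and act, as partners of a retinoid X receptor, on genes of fatty acid uptake and oxidation. TFAM packages mitochondrial DNA and starts its transcription. In the adult heart this network is known for keeping up fatty acid oxidation and mitochondrial mass, and its decline is a familiar feature of the failing heart.

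Promoters are shown for members that fell, and shorter windows for *Ppara*, which fell too, and for *Tfam*, which was not called. From RefSeq, 16 promoters of 9 of the members were used here, with none of *Ppargc1b*. They were placed in the mm9 genome by exact match, each at 1 position. The 250 bases before the start are shown for *Rxrg*, the member that fell most, and for *Ppargc1a*, the PGC-1 gene that fell in both infarcted groups. Capitals mark a motif that a search found: AAGGTCA, the site of estrogen-related receptors, in the second *Rxrg* promoter (chr1:169548146-169548395, + strand), and CGTCA, the reverse complement of the CREB core TGACG, in that of *Ppargc1a* (chr5:51958965-51959214, - strand).
Rxrg promoter 2: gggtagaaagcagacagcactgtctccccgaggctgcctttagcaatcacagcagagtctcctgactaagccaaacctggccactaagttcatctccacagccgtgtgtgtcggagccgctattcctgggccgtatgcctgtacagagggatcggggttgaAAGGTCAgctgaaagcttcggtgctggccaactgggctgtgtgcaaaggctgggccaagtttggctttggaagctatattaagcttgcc
Ppargc1a promoter 1: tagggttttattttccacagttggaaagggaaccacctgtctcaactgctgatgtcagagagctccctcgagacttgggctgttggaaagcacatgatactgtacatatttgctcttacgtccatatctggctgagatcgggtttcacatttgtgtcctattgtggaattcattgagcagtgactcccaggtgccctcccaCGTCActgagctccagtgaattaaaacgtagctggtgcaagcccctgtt

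Windows of 30 bases are shown around the motif nearest to the start of *Ppara* (chr15:85566165-85566194, + strand), where capitals mark the NRF1 palindrome GCGCATGCGC, and of *Tfam* (chr10:70700822-70700851, - strand), where they mark the GABP site CCGGAAG.
Ppara window: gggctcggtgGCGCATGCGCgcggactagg
Tfam window: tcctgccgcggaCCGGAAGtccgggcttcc

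Searched on both strands of the 250 bases, AAGGTCA lay in 1 of the 16 member promoters, at positions -89 to -83 of the second *Rxrg* promoter, and in 4.08% of 32851 mouse promoters of the same length. TGACG lay in 3 of 16, against 17.8% of all promoters, with matches before *Ppargc1a* (-49 to -45), *Ppara* and *Esrrb*. The NRF1 palindrome lay in 1 of 16 against 0.782%, at -31 to -22 before *Ppara*, and CCGGAAG in 1 of 16 against 6.91%, at -47 to -41 before *Tfam*. The direct repeat AGGTCANAGGTCA, the binding form of a PPAR with a retinoid X receptor, was in 0 of 16 against 0.0335%, and CACGTG, the E-box of clock factors, in 0 of 16 against 6.02%. Positions count from the RefSeq start used. Of the 250 bases, 236 of the *Tfam* promoter and 150 of the *Ppara* promoter lay in an exon of the GENCODE annotation. These matches describe letters in the windows, and binding was not measured.

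Across the 3 groups, the levels of the regulators in the sham heart set their order. *Rxrg* (53.8 and 53.4) and *Esrra* (47.0 and 54.1) were highest and overlapped, followed by *Ppargc1a* (24.9 and 26.2), by *Ppard* (22.0 and 19.3) and *Ppara* (19.7 and 21.8), which overlapped, and by *Esrrg*, *Esrrb* and *Ppargc1b*. *Tfam* and *Pparg* were lowest and overlapped. In the KO MI libraries the order was different: *Esrra* (34.8 and 36.5) stood first, *Ppard* (21.4 and 23.4) had moved to second place, and *Rxrg* (15.8 and 16.5) came next.

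**Figure D1:**
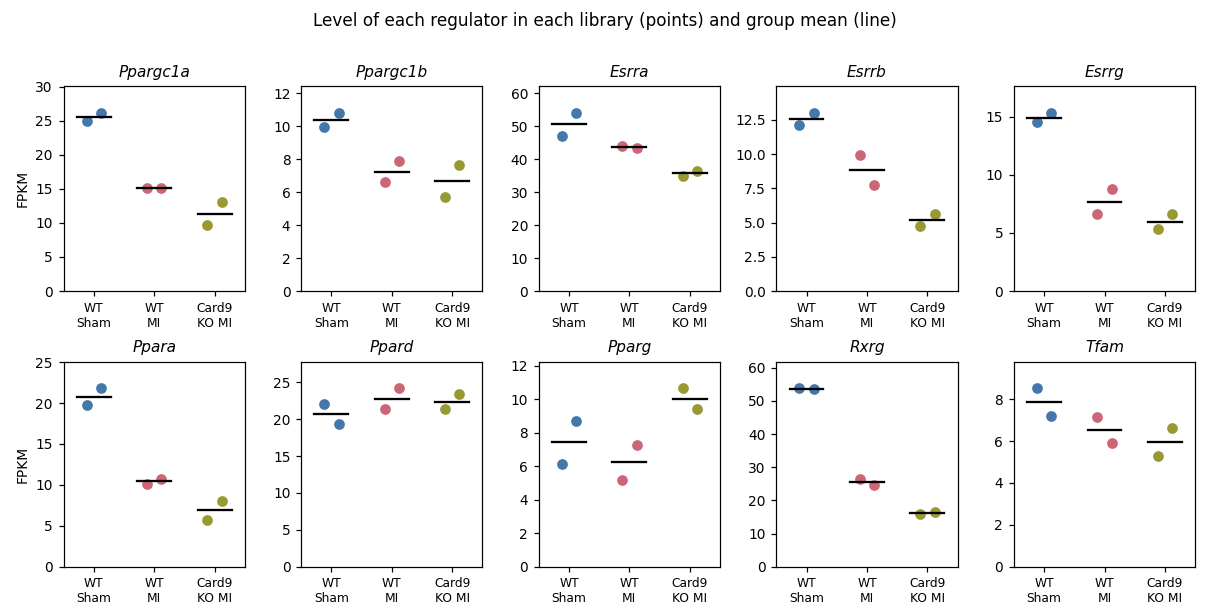
FPKM (y axis, from 0, a scale of its own for each gene) of the 10 regulators in each library (points) of Sham, WT MI and KO MI (x axis), with the mean of the 2 libraries as a line. *Rxrg* goes from 53.8 and 53.4 in Sham to 15.8 and 16.5 in KO MI, whereas *Ppard* stays between 19.3 and 24.2 in all 6 libraries.

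After infarction of WT hearts, 4 of the 10 regulators fell and 0 rose by limma's moderated test (adjusted p below 0.05 over 13120 genes), beside 9.39% of all genes tested that were called lower and 27.7% that were called higher. At an unadjusted p below 0.05, 6 members were lower and 0 higher, beside 12.8% and 33.9% of all genes. Those that fell were *Rxrg*, *Ppara*, *Esrrg* and *Ppargc1a*, with log2 differences from -1.04 to -0.72 on the scale of log2(FPKM + 1), which understates the change of genes with low FPKM. The median difference was -0.47 for the members and 0.19 for all genes tested. Less that median of all genes, the differences were -1.23 for *Rxrg*, -1.11 for *Ppara*, -1.07 for *Esrrg* and -0.91 for *Ppargc1a*. In whole heart tissue, fewer cells of a type and less RNA per cell cannot be told apart, and the 16 cardiomyocyte markers moved in the same direction: 11 were called lower, with a median of -0.53, and 7 without WT MI 1, WT MI 2 or Sham 2. When each library was centred on these markers, *Rxrg* alone was still called lower (-0.45, adjusted p = 0.02), while *Ppara* (-0.34), *Esrrg* (-0.30) and *Ppargc1a* (-0.13) kept their sign without passing the test, and *Esrra* (0.39) and *Ppard* (0.72) were called higher. With this centring, 9094 of the 13120 genes tested were called higher and 147 lower, with a median of 0.77.

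In the KO MI libraries, 1 member differed from WT MI by the same test: *Rxrg* fell, and 0 members rose. Of all genes tested, 0.587% were called lower and 0.816% higher in this comparison. At an unadjusted p below 0.05, 5 members were lower and 1, *Pparg*, was higher, beside 8.57% and 11.5% of all genes. Compared with Sham, 7 members fell in these libraries and 0 rose, beside 14.3% and 34.8% of all genes, and the median of the members was -0.85 against 0.24 for all genes. An unadjusted p below 0.05 gave 7 lower and 0 higher, beside 16.7% and 39.4% of all genes. The genes called against Sham here were *Ppargc1a*, *Ppargc1b*, *Esrra*, *Esrrb*, *Esrrg*, *Ppara* and *Rxrg*. Both comparisons with Sham share the same control libraries. With each library centred on the cardiomyocyte markers, 2 of the 7, *Ppara* (-0.60, adjusted p = 0.00815) and *Rxrg* (-0.79, adjusted p = 0.000478), were still called lower, *Ppargc1b* and *Esrra* turned positive, and 4 members (*Esrra*, *Ppard*, *Pparg* and *Tfam*) were called higher. This centring gave 10905 of the 13120 genes tested called higher and 154 lower, with a median of 1.11.

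**Figure D2:**
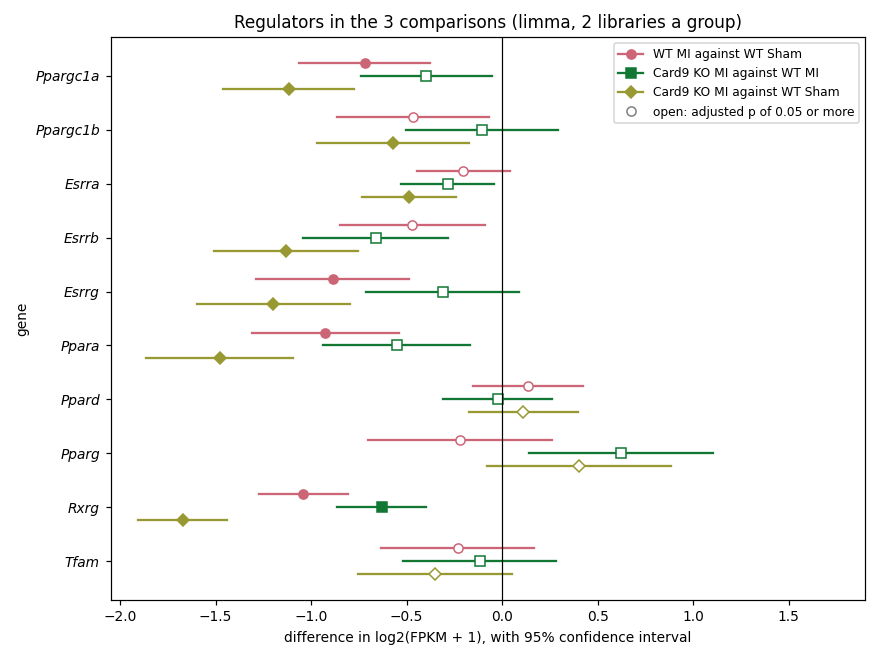
Difference in log2(FPKM + 1) between group means (x axis) with its 95% confidence interval (lines) for each regulator (y axis) in the 3 comparisons, where filled symbols have a limma adjusted p below 0.05. Filled symbols are on the negative side throughout, 4 for WT MI against Sham, 1 for KO MI against WT MI (*Rxrg*) and 7 for KO MI against Sham, a side that some genes leave under other scalings.

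*Ppargc1a* encodes PGC-1alpha, the inducible coactivator that exercise, cold and fasting raise. Its FPKM was 24.9 and 26.2 (Sham), 15.1 and 15.1 (WT MI) and 9.70 and 13.0 (KO MI). The groups did not overlap, and every KO MI library was below both WT MI libraries. *Ppargc1a* fell after MI in WT hearts (log2 difference -0.72, SE 0.15, adjusted p = 0.00732) and in KO MI compared with Sham (-1.12, adjusted p = 0.000632). Between the infarcted groups the difference of -0.40 (95% confidence interval -0.74 to -0.055) did not pass the test (adjusted p = 0.192).

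*Ppargc1b*, which encodes PGC-1beta, a coactivator with a steadier level that also serves lipid synthesis genes in liver, had an FPKM of 9.95 and 10.8 (Sham), 6.64 and 7.87 (WT MI) and 5.74 and 7.68 (KO MI). Both infarcted groups lay below Sham and overlapped each other. The difference from Sham was -0.47 in WT MI (adjusted p = 0.0661) and -0.57 in KO MI (adjusted p = 0.0256), and the latter did not pass without Sham 1 (0.0596), Sham 2 (0.106) or KO MI 1 (0.153). Of the summed FPKM of both coactivators, *Ppargc1a* made up 71.5% and 70.7% (Sham), 69.5% and 65.7% (WT MI) and 62.8% and 62.8% (KO MI), a description with no test.

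*Esrra* encodes ERRalpha, the estrogen-related receptor of oxidative tissues. It measured 47.0 and 54.1 (Sham), 43.9 and 43.4 (WT MI) and 34.8 and 36.5 (KO MI). The 3 groups did not overlap, but the steps were small. The difference of WT MI from Sham was -0.20 (95% confidence interval -0.45 to 0.041, adjusted p = 0.169), and *Esrra* fell in KO MI compared with Sham (-0.49, SE 0.11, adjusted p = 0.00642). Between the infarcted groups the difference was -0.29 (adjusted p = 0.19).

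*Esrrb* encodes ERRbeta, known from pluripotent cells and the inner ear and also present in heart. Its FPKM was 12.1 and 13.0 (Sham), 9.96 and 7.76 (WT MI) and 4.76 and 5.66 (KO MI), and the groups did not overlap. *Esrrb* fell in KO MI compared with Sham (-1.13, SE 0.16, adjusted p = 0.000961). The differences of WT MI from Sham (-0.47, adjusted p = 0.0555) and of KO MI from WT MI (-0.66, adjusted p = 0.0946) both had confidence intervals below 0 without passing the adjusted test.

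*Esrrg* encodes ERRgamma, which takes part in the turn of the newborn heart to oxidative metabolism. It was at 14.5 and 15.4 (Sham), 6.60 and 8.77 (WT MI) and 5.30 and 6.65 (KO MI). The infarcted groups overlapped each other and were well below Sham. *Esrrg* fell in WT MI (-0.89, SE 0.17, adjusted p = 0.00593) and in KO MI (-1.20, adjusted p = 0.000968) against Sham, and the difference between the infarcted groups was -0.31 (95% confidence interval -0.71 to 0.090, adjusted p = 0.363). Of the summed FPKM of the 3 receptors, *Esrra* made up 63.8% and 65.6% (Sham), 72.6% and 72.4% (WT MI) and 77.6% and 74.8% (KO MI), a description with no test.

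*Ppara* encodes PPARalpha, the receptor that fatty acids activate in heart and liver. Its FPKM was 19.7 and 21.8 (Sham), 10.2 and 10.7 (WT MI) and 5.72 and 8.05 (KO MI). No groups overlapped, and KO MI 1 was the lowest library. *Ppara* fell in WT MI (-0.93, SE 0.17, adjusted p = 0.00409) and in KO MI (-1.48, SE 0.17, adjusted p = 0.000287) compared with Sham. The difference between the infarcted groups, -0.55 (95% confidence interval -0.94 to -0.17), did not pass the test (adjusted p = 0.132).

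*Ppard* encodes PPARdelta, a fatty acid receptor found in most tissues. It measured 22.0 and 19.3 (Sham), 21.4 and 24.2 (WT MI) and 21.4 and 23.4 (KO MI). All 3 groups overlapped. The differences were 0.13 (95% confidence interval -0.15 to 0.42) for WT MI and 0.11 (-0.18 to 0.40) for KO MI against Sham and -0.024 (-0.31 to 0.26) between the infarcted groups, and the differences from Sham turned negative under upper-quartile scaling (-0.080 and -0.14).

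*Pparg* encodes PPARgamma, best known from adipocytes and lipid-laden macrophages, and was the only member with its highest values in KO MI. Its FPKM was 6.14 and 8.72 (Sham), 5.20 and 7.27 (WT MI) and 10.7 and 9.40 (KO MI). Sham and WT MI overlapped, and both KO MI libraries were above the other 4. The difference from WT MI was 0.62 (95% confidence interval 0.14 to 1.10) with an adjusted p of 0.158, so it did not pass the test, and against Sham it was 0.40 (adjusted p = 0.145). Centred on the cardiomyocyte markers, these differences were 0.91 (adjusted p = 0.0402) and 1.28 (adjusted p = 0.00037). In the same order, this centring put the median of all genes at 0.33 and 1.11, with 1100 and 10905 of 13120 called higher.

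Markers of cells that carry PPARgamma are given beside these values. Of all genes tested, 27.7% were called higher in WT MI and 34.8% in KO MI against Sham. Of 7 adipocyte markers 3 passed the filter and 0 were called by limma in any comparison (at an unadjusted p below 0.05, 1 was higher in KO MI than in WT MI), their summed FPKM lay between 473 and 630 in the 6 libraries, almost all of it *Fabp4* (457 to 620), *Adipoq* was at 1.30 and 1.08 (Sham), 1.62 and 0.42 (WT MI) and 0.19 and 2.38 (KO MI), and *Lep* was listed in none of the 6 files. Of 14 macrophage markers 13 were called higher in WT MI and 13 in KO MI against Sham, and 0 between the infarcted groups, where 6 were higher and 1 lower at an unadjusted p below 0.05. Their summed FPKM was 432 and 370 (Sham), 1495 and 1893 (WT MI) and 3006 and 2179 (KO MI), with *Cd68* at 12.5 to 362 and *Adgre1* at 2.83 to 30.9. In WT MI *Pparg* overlapped Sham while the sum of the macrophage markers was above it, and the part of macrophages in its level was not tested.

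The PPAR family differed between the groups in its make-up. The summed FPKM was 47.9 and 49.8 (Sham), 36.7 and 42.2 (WT MI) and 37.7 and 40.8 (KO MI). *Ppara* made up 41.2% and 43.7% of it (Sham), 27.6% and 25.4% (WT MI) and 15.2% and 19.7% (KO MI). The share of *Pparg* was 12.8% and 17.5%, 14.2% and 17.2%, and 28.2% and 23.0% in the same order. In both infarcted groups *Ppard* held over 56% of the family, and in the KO MI libraries *Pparg* outranked *Ppara*. Multiplying a library by 1 factor leaves such shares as they are, and they were not computed under quantile normalization.

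**Figure D3:**
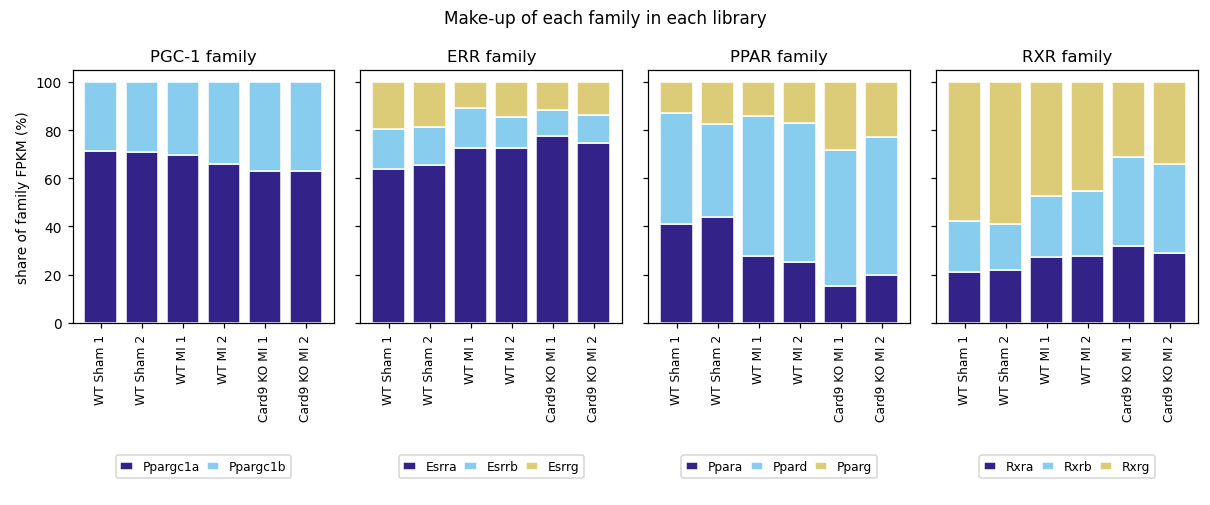
Share of each gene in the summed FPKM of its family (y axis, %) in each of the 6 libraries (x axis), as stacked bars for the PGC-1, ERR, PPAR and RXR families. The share of *Ppara* goes from 41.2% and 43.7% in Sham to 15.2% and 19.7% in KO MI, and that of *Rxrg* from 57.8% and 59.1% to 31.0% and 33.9%.

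*Rxrg* encodes RXRgamma, the retinoid X receptor of striated muscle and parts of the brain, a partner of the PPARs. It was at 53.8 and 53.4 (Sham), 26.4 and 24.7 (WT MI) and 15.8 and 16.5 (KO MI). The libraries of a group were within 2 FPKM of each other and the groups lay far apart. *Rxrg* fell in WT MI (-1.04, SE 0.10, adjusted p = 0.000265) and in KO MI (-1.67, SE 0.10, adjusted p = 2.44e-05) against Sham, and also in KO MI against WT MI (-0.63, 95% confidence interval -0.86 to -0.40, adjusted p = 0.0367). The last call was lost when any of the 6 libraries was left out (adjusted p between 0.0603 and 0.265) and when the libraries were centred on cardiomyocyte markers (-0.34, adjusted p = 0.144), though the sign held.

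The other retinoid X receptors stood below *Rxrg* in Sham. *Rxra* was at 19.8 and 19.8 (Sham), 15.2 and 15.1 (WT MI) and 16.4 and 14.1 (KO MI), and *Rxrb* at 19.5 and 17.1, 14.3 and 14.5, and 18.9 and 18.0. *Rxra* was called lower against Sham in WT MI (-0.36, adjusted p = 0.0457) and in KO MI (-0.36, adjusted p = 0.0377), calls that were both lost without any one library of Sham or WT MI, the latter also without KO MI 2 (adjusted p = 0.173). Centred on the cardiomyocyte markers, *Rxra* was at 0.23 (adjusted p = 0.28) in WT MI and was called higher in KO MI (0.52, adjusted p = 0.0201). The medians of all genes tested with this centring were 0.77 and 1.11. *Rxrb* was not called against Sham (-0.32, adjusted p = 0.0665, and 0.012). *Rxrg* made up 57.8% and 59.1% of the family (Sham), 47.2% and 45.5% (WT MI), and 31.0% and 33.9% (KO MI), and in KO MI *Rxrb* (37.0% and 37.0%) had the largest share.

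*Tfam*, the mitochondrial transcription factor, showed no call. Its FPKM was 8.52 and 7.19 (Sham), 7.15 and 5.92 (WT MI) and 5.29 and 6.61 (KO MI). The 2 infarcted groups overlapped, and both lay below Sham. The differences from Sham were -0.23 (95% confidence interval -0.64 to 0.17) and -0.35 (-0.75 to 0.050, adjusted p = 0.129), and the latter was -0.58 with an adjusted p of 0.0269 under upper-quartile scaling and 0.53 with 0.0314 when centred on the cardiomyocyte markers. With that centring the median of all genes tested was 1.11.

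**Figure D4:**
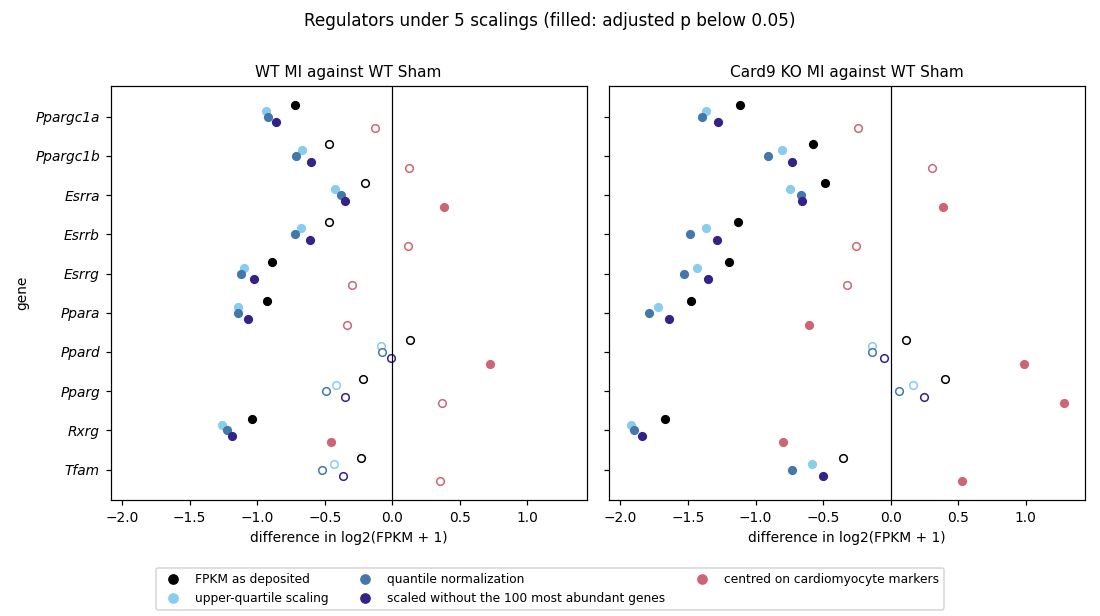
Difference in log2(FPKM + 1) of each regulator (y axis) in WT MI and in KO MI against Sham (x axis) under 5 scalings (colours), where filled points have a limma adjusted p below 0.05. Upper-quartile scaling, quantile normalization and scaling without the 100 most abundant genes move most points to the left, centring on cardiomyocyte markers moves them to the right, and *Rxrg* stays negative and called under all 5.

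On the deposited scale the median of all genes was above 0. It was 0.19 for WT MI and 0.24 for KO MI against Sham, and under upper-quartile scaling -0.0034 and 0.019. On that scale 7 members were called lower in WT MI, with *Ppargc1b* (-0.67), *Esrra* (-0.42) and *Esrrb* (-0.68) beside the 4 named above, and 8 in KO MI. The split of all calls in WT MI against Sham was 3637 higher and 1232 lower in the deposited scale and 2576 higher and 2201 lower under upper-quartile scaling.

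The markers of cell types give the setting of these changes. Over all genes tested, 9.39% were called lower and 27.7% higher in WT MI. For KO MI the shares were 14.3% and 34.8% against Sham and 0.587% and 0.816% against WT MI. The counts of endothelial and of T and B cell markers lay near these shares. The summed FPKM of the 16 cardiomyocyte markers, among them *Myh6* (3454 to 7384) and *Tnnt2* (4543 to 7245), was 65766 and 66875 (Sham), 39006 and 40139 (WT MI) and 31791 and 36817 (KO MI). In KO MI 15 of them were called lower than in Sham and 1, *Tcap*, lower than in WT MI, a call lost without any one library of the infarcted groups. At an unadjusted p below 0.05 by limma, 8 cardiomyocyte markers were lower in KO MI than in WT MI and 0 higher (median -0.26). The shares of all genes were 8.57% lower and 11.5% higher. At that level, 5 fibroblast markers were higher and 1 lower between these groups. Of 10 fibroblast markers, 8 were called higher in WT MI, 9 in KO MI against Sham, and 3 in KO MI against WT MI. Those 3 became 0 without WT MI 1 or either KO MI library and 1 without either Sham library. Of the 6 neutrophil markers tested all were called higher in both infarcted groups and 0 between them (2 lower in KO MI at an unadjusted p below 0.05), with *S100a8* at 0.91 to 68.9 and *S100a9* at 0.72 to 94.0. Endothelial markers (10 tested) had 2 higher and 1 lower in WT MI and 3 higher and 2 lower in KO MI, erythroid markers (4 tested) had 3 higher in WT MI and 0 in KO MI (0 also at an unadjusted p below 0.05 by limma), and T and B cell markers (4 tested) had 1 higher in each. Of these, the 2 endothelial markers higher in WT MI became 0 without WT MI 1 or Sham 2 and 1 without WT MI 2 or Sham 1, the 1 lower in WT MI became 2 without either KO MI library, and the 2 lower in KO MI became 1 without any one library. The 3 erythroid markers became 0 without WT MI 2 and 1 without Sham 2, and the 0 in KO MI became 2 without Sham 1. The T and B cell call became 0 in WT MI without WT MI 1, WT MI 2 or Sham 2 and in KO MI without KO MI 1 or Sham 2. The part of these cell types in the levels of the regulators was not tested beyond the centring.

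The partners through which the regulators act were followed next. All genes tested had 9.39% called lower and 27.7% higher in WT MI, and 14.3% and 34.8% in KO MI against Sham. Of 10 further coactivators, 2 were called lower and 1 higher in WT MI, 3 lower and 1 higher in KO MI against Sham, and 0 between the infarcted groups (limma, median -0.042 for the list and 0.045 for all genes, with 2 lower and 0 higher at an unadjusted p below 0.05). *Perm1*, a muscle gene that PGC-1 and ERR induce and that feeds back on them, was at 171 and 166 (Sham), 77.5 and 81.9 (WT MI) and 44.2 and 61.1 (KO MI). It fell in both comparisons with Sham (-1.07, adjusted p = 0.00115, and -1.68, adjusted p = 9.39e-05) and was at -0.61 (adjusted p = 0.0921) between the infarcted groups. *Pprc1*, the third member of the PGC-1 family and a growth-responsive one, went the other way, from 5.96 and 6.28 in Sham to 11.7 and 14.5 in WT MI and 15.6 and 13.1 in KO MI. It rose by 0.98 (adjusted p = 0.00237) and 1.10 (adjusted p = 0.000842), so the family held members that fell and a member that rose.

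*Lpin1* encodes lipin 1, which acts with PGC-1alpha and PPARalpha in the nucleus and as an enzyme of lipid synthesis. It measured 76.6 and 76.3 (Sham), 51.7 and 55.3 (WT MI) and 30.3 and 38.9 (KO MI). *Lpin1* fell in KO MI (-1.13, adjusted p = 0.000298) and in WT MI (-0.51, adjusted p = 0.0171) compared with Sham, the latter lost without any one library of the groups compared (adjusted p from 0.0596 to 0.103). Centred on the cardiomyocyte markers, the KO MI call did not hold (-0.25, adjusted p = 0.102). The remaining call among the coactivators was *Ncoa2*, a coactivator of many nuclear receptors, lower in KO MI than in Sham (-0.46, adjusted p = 0.0196). It was lost without Sham 2 (adjusted p = 0.0872) or KO MI 1 (adjusted p = 0.0968) and turned to a call in the other direction with centring (0.42, adjusted p = 0.0487).

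Genes that act on *Ppargc1a* from upstream, such as AMP-activated kinase, calcium-dependent factors and CREB, had 2 of 14 members higher and 2 lower in WT MI and 2 higher and 3 lower in KO MI against Sham, with 0 calls between the infarcted groups (2 lower at an unadjusted p below 0.05). The same backgrounds as for the members apply, 27.7% higher and 9.39% lower in WT MI and 34.8% and 14.3% in KO MI. In WT MI the 2 higher became 0 without WT MI 1, Sham 2 or either KO MI library and 1 without WT MI 2 or Sham 1, and the 2 lower became 0 without WT MI 2, Sham 1 or Sham 2 and 1 without WT MI 1. In KO MI the 2 higher became 1 when any library but KO MI 2 was left out. *Klf15*, a factor of lipid metabolism that acts with PPARalpha, was at 20.8 and 24.4 (Sham), 13.6 and 15.8 (WT MI) and 6.47 and 9.37 (KO MI). It fell in KO MI (-1.42, adjusted p = 0.000564) and in WT MI (-0.59, adjusted p = 0.038) compared with Sham, where the WT MI call was lost without any one of the 4 libraries compared. *Prkaa2*, the catalytic subunit of AMP-activated kinase in muscle, fell in KO MI (-0.88, adjusted p = 0.0011). Centred on the cardiomyocyte markers, the differences of WT MI from Sham were 0.0013 for *Klf15* and 0.13 for *Prkaa2*. In KO MI against Sham the call of *Klf15* held with centring, and *Prkaa2* was at -0.0050 (adjusted p = 0.977).

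The genes of mitochondrial transcription and replication beside *Tfam* had 1 of 12 higher and 2 lower in WT MI, 2 higher and 3 lower in KO MI against Sham, and 0 calls between the infarcted groups (2 lower at an unadjusted p below 0.05), beside the same backgrounds. In WT MI the 1 higher became 0 when any library but Sham 1 was left out, and the 2 lower became 0 without WT MI 1, WT MI 2 or Sham 2 and 1 without Sham 1. In KO MI the 2 higher became 0 without KO MI 1 and 1 without KO MI 2 or Sham 2. *Twnk*, the mitochondrial helicase, was at 12.2 and 13.4 (Sham), 8.46 and 8.13 (WT MI) and 6.49 and 6.08 (KO MI). *Twnk* (-0.92, adjusted p = 0.000947) and *Tfb2m* (-0.91, adjusted p = 0.00151), a factor that opens the mitochondrial promoters, fell in KO MI against Sham. Centred on the cardiomyocyte markers, neither call held (-0.045, adjusted p = 0.832, and -0.036, adjusted p = 0.83). *Nrf1*, a nuclear factor for genes of mitochondrial proteins, was higher there (0.65, adjusted p = 0.0106), which quantile normalization (0.24, adjusted p = 0.248) and the fit without KO MI 1 (0.58, adjusted p = 0.0698) did not keep.

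The genes that the regulators act on were counted from 2 lists of textbook targets. Beside both lists, 9.39% of all genes were called lower and 27.7% higher in WT MI. In KO MI against Sham these shares were 14.3% and 34.8%, and between the infarcted groups 0.587% and 0.816%. At an unadjusted p below 0.05 by limma, the shares between the infarcted groups were 8.57% lower and 11.5% higher. Of 20 ERR targets, 17 were called lower and 0 higher in WT MI (median -0.61), 20 lower in KO MI against Sham (median -0.80), and 0 between the infarcted groups, where all 20 differences lay between -0.40 and -0.099 and 8 were lower at an unadjusted p below 0.05. *Cox7a1*, the subunit of cytochrome oxidase in heart and muscle, was at 1792 and 1960 (Sham), 739 and 789 (WT MI) and 562 and 717 (KO MI) (-1.30 and -1.56 against Sham, adjusted p = 0.000296 and 7.59e-05). *Cox8b* (-0.96 and -1.15) and the mitochondrial creatine kinase *Ckmt2* (-0.93 and -1.11) fell in the same way. All 3 are also made chiefly by muscle cells, and they moved with the cardiomyocyte markers.

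Of 24 PPAR targets, 19 were called lower and 2 higher in WT MI (median -0.69), and 17 lower and 3 higher in KO MI against Sham (median -0.97), while 1 was lower and 1 higher between the infarcted groups, both 0 without any one library. Without 1 of the libraries Sham 1, Sham 2 or WT MI 2, the 19 became 13, 11 and 11. Between the infarcted groups, 13 of the 24 were lower and 5 higher at an unadjusted p below 0.05 by limma. Members of this list moved in both directions. *Mlycd*, which removes malonyl-CoA and so frees fatty acid entry into mitochondria, fell from 51.1 and 49.9 in Sham to 22.0 and 16.8 in WT MI and 17.5 and 19.4 in KO MI (-1.35, adjusted p = 0.000357, and -1.41, adjusted p = 0.000176).

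*Pdk4*, the kinase that closes pyruvate dehydrogenase when fat is burnt, was at 162 and 235 (Sham), 26.4 and 66.6 (WT MI) and 112 and 169 (KO MI). *Ucp3*, an uncoupling protein of muscle, was at 20.1 and 29.8, 2.01 and 5.39, and 11.9 and 14.5 in the same order. *Pdk4* (-2.19, adjusted p = 0.00441) and *Ucp3* (-2.54, adjusted p = 0.00109) fell in WT MI, and both KO MI libraries lay above both WT MI libraries, by 1.69 for *Pdk4* (95% confidence interval 0.76 to 2.61) and 1.69 for *Ucp3* (0.90 to 2.48). These differences between the infarcted groups did not pass the test (adjusted p = 0.0884 and adjusted p = 0.0598), and their sign was opposite to that of *Ppara*. They passed when centred on the cardiomyocyte markers (adjusted p = 0.00775 and adjusted p = 0.00625) and with the replicate block (adjusted p = 0.0329 and adjusted p = 0.0414), and *Ucp3* also with 5 added to FPKM (adjusted p = 0.0488) or a minimum mean FPKM of 5 (adjusted p = 0.0419).

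*Angptl4*, a secreted inhibitor of lipoprotein lipase that PPARs and low oxygen induce, rose in every comparison. Its FPKM was 6.28 and 7.24 (Sham), 29.7 and 31.8 (WT MI) and 48.3 and 48.8 (KO MI), which gave differences of 2.03 (adjusted p = 3.29e-05), 2.68 (adjusted p = 6.84e-06) and, between the infarcted groups, 0.64 (adjusted p = 0.0472). *Plin2*, a coat protein of lipid droplets, rose from 41.8 and 36.1 to 85.0 and 95.7 in WT MI (1.20, adjusted p = 0.000939) and to 161 and 119 in KO MI (1.81, adjusted p = 8.82e-05). The call of *Angptl4* between the infarcted groups did not hold when any 1 of the 6 libraries was left out (adjusted p from 0.0551 to 0.289).

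**Figure D5:**
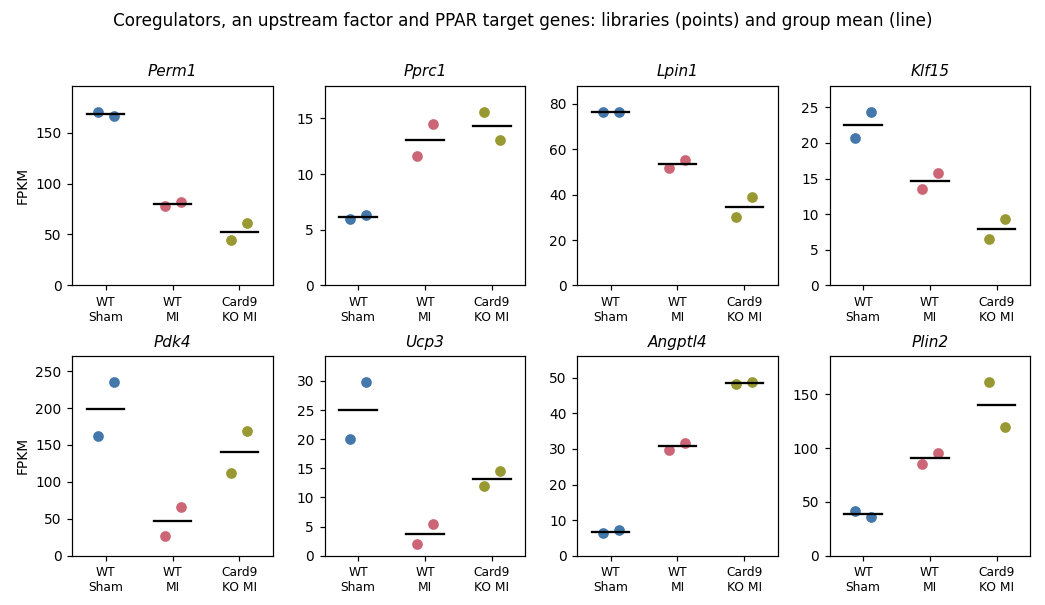
FPKM (y axis, from 0, a scale of its own for each gene) of the coregulators *Perm1*, *Pprc1* and *Lpin1*, the upstream factor *Klf15* and the PPAR targets *Pdk4*, *Ucp3*, *Angptl4* and *Plin2* in each library (points) of the 3 groups (x axis), with group means as lines. *Perm1*, *Lpin1* and *Klf15* step down across the groups, *Pprc1*, *Angptl4* and *Plin2* are higher in both infarcted groups, and *Pdk4* and *Ucp3* are lowest in WT MI.

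The genes whose levels ran most like each member over the 6 libraries were found by the smallest root mean square difference of log2(FPKM + 1), centred on its mean over the libraries. *Ppargc1a* ran closest to *Vwa8*, which encodes a mitochondrial protein (0.0343), *Pcca*, a subunit of propionyl-CoA carboxylase (0.0488), and *Lpl*, lipoprotein lipase (0.0493). *Esrra* ran closest to *Pygb*, a glycogen phosphorylase (0.0255), and *Ppara* to *Txlnb* (0.0738), *Asb15* (0.0765) and *Acsl1*, which activates long-chain fatty acids (0.077). *Asb15* was also among the 3 genes nearest to *Rxrg* (0.11), after *Ybx2* (0.107) and *Lrrc14b* (0.108).

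For the remaining members, the 3 genes nearest to *Esrrb* included *Got1* (0.0654) and *Cpt1b*, the muscle form of the gatekeeper of fatty acid entry (0.0663), and *Esrrg* ran closest to *Aldh5a1* (0.0426), *Fmo1* and *Gpam* (0.066 each). *Ppargc1b* ran closest to *Klhl31* (0.0506), *Ppard* to *Gpr137* (0.036), *Pparg* to *St6galnac2* (0.0783) and *Tfam* to *Slmap* (0.0398). All of these are distances over 6 libraries that share 3 groups, and they are given as a description.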

How the data were processed

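RNA was sequenced from 6 heart libraries in 3 groups (Sham, WT MI, KO MI), assigned by their labels. The authors enriched mRNA, used BWA and Bowtie2 with the mm9 mouse genome, and deposited FPKM values for NCBI gene numbers, with a file for each library. The annotation and strand setting behind the FPKM values are not given in the sources used here, and genes that overlap or resemble others can share fragments. FPKM is relative to the library total, so a few abundant genes can shift all others.

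Genes not listed were set to 0. Of 17441 gene numbers, 17390 matched a symbol in a RefSeq table of GRCm38.p6, used for names only. Depth was estimated from the spacing of low FPKM values of 5153 genes with 1 coding transcript. Only 71.5% to 77.2% of low values were within 0.15 of whole fragments, so counts were not rebuilt. Estimated fragments used each gene's longest coding transcript in GENCODE and cover counting error only.

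limma 3.58.1 in R 4.3.3 (lmFit, eBayes with trend) was fitted to log2(FPKM + 1) of the 13120 genes that reached FPKM 1 in 2 libraries or more, with the 3 groups in one fit and no covariates. All 10 members passed. P-values were adjusted over all genes by the Benjamini-Hochberg method. limma was used because the study's screen gives no p. With 2 libraries against 2, no exact permutation test can reach 0.05, so none was made. The fit was tested on simulated data. Tables were handled in Python 3.11.15 with numpy 2.4.6 and pandas 2.3.3.

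The members and gene lists were chosen with earlier results of these data known. Named genes are *Card9*, the members, in each pathway list the 3 called genes with the largest change against Sham and every gene called between the infarcted groups, the coregulators, the first 2 markers of each cell type, and the 3 genes nearest to each member. Of the genes this rule names, 3 are not reported here. *Tcap*, *Adipoq*, *Lep* and *Fabp4* among the markers were named after their values were seen. Alternatives were 0.1 or 5 added to FPKM, no filter or a minimum mean FPKM of 5, 3 other scalings (upper quartile, quantile, without the 100 most abundant genes), centring on 16 cardiomyocyte markers, a fit of the compared groups alone, eBayes with no trend, a block for the replicate number, a 2-fold minimum, the study's screen (2-fold in group means, diverge probability of at least 0.8), and each library left out. Promoters are from RefSeq (GRCm38.p6), placed in mm9 by exact match.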

Additional observations from a re-analysis of the deposited data

How the results depend on the processing

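Of 510 values of the members under alternatives, 447 kept their sign and their side of the threshold, 19 newly passed, 20 no longer passed and 24 changed sign. Over the 13120 genes, centring gave 9094 higher calls in WT MI and 10905 in KO MI against Sham, and 1100 between the infarcted groups. In WT MI against Sham, 7 members were lower with upper-quartile, quantile or no-top-100 scaling and 1 with centring on cardiomyocyte markers, a 2-fold minimum or the study's screen, and 2 were higher with centring. With a library left out the count was 4 in each case. The single call between the infarcted groups became 0 with no filter, centring, only the groups compared, no trend, a 2-fold minimum, the screen, the replicate block, or any library left out (0 to 0), and 1 member was higher with centring. In KO MI against Sham, 2 were lower and 4 higher with centring, 4 lower with the screen, and 6 to 7 with a library left out.

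Centring gave the changed signs of *Ppargc1b* (0.12), *Esrra* (0.39), *Esrrb* (0.12), *Pparg* (0.37), *Tfam* (0.36), *Klf15* (0.0013), *Lpin1* (0.082), *Ncoa2* (0.36), *Prkaa2* (0.13), *Rxra* (0.23), *Tefm* (0.17), *Tfb2m* (0.12) and *Twnk* (0.019) in WT MI against Sham, of *Ppargc1b* (0.18), *Esrra* (0.0026), *Ppard* (0.26) and *Tfam* (0.17) between the infarcted groups, and of *Ppargc1b* (0.30), *Esrra* (0.39), *Tfam* (0.53), *Ncoa2* (0.42), *Pdk4* (0.37), *Rxra* (0.52), *Tefm* (0.20) and *Ucp3* (0.027) in KO MI against Sham. *Ppard* changed sign with upper-quartile (-0.080 and -0.14), quantile (-0.077 and -0.14) and no-top-100 scaling (-0.0097 and -0.053) against Sham. With a library left out, *Pparg* lay between -0.44 and 0.0042 (without Sham 2) in WT MI against Sham. Between the infarcted groups *Ppargc1b* lay between -0.29 and 0.076 (0.0016 without WT MI 2), *Ppard* between -0.11 and 0.061 (0.038 without KO MI 1) and *Tfam* between -0.26 and 0.019, the upper values without KO MI 1, WT MI 2 and KO MI 1. The cause was not tested.

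Samples with the same number did not deviate together over all genes tested (Pearson r of deviations 0.0024, -0.0083 and 0.0204 for the 3 pairs of groups). With 2 libraries a group, these values cannot show whether such samples share more than a number. With the replicate block, 5 members were lower in WT MI, with *Ppargc1b* added (adjusted p = 0.0467). At these depths *Pparg* rested on the fewest estimated fragments.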
